A study of Homo sapiens with 12 samples.

Results

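The genes described here are 10 contractile and actin-binding targets of serum response factor (SRF), chosen by name: ACTA2, TAGLN, CNN1, MYL9, TPM1, TPM2, CALD1, VCL, FLNA and SRF itself. They, like the related lists below, were chosen with earlier results of these data known. They are 10 of the 16633 genes listed in either of the study's 2 expression tables, and all 10 were listed and tested in both. The cells were HT1080, an established human fibrosarcoma line derived from connective tissue and labelled wild type. The cells were grown in biotin-depleted medium with 10% serum and moved, treated and control alike, to biotin-depleted medium with 1% serum for the 24 h of treatment. One table holds 3 libraries of cells treated with 40 nM phorbol 12-myristate 13-acetate (PMA) and 3 control libraries, numbered 1 to 3. In the other, 3 libraries come from cells given concanavalin A (ConA) at 40 µg/mL and a further 3 are controls, numbered 4 to 6. PMA is a phorbol ester that activates protein kinase C, and ConA is a plant lectin that binds mannose-rich glycans on the cell surface. Each treatment is compared with the controls of its own table, which asks how the contractile transcripts of one cell line change under a kinase activator and under a lectin.

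SRF is a transcription factor that binds a short DNA element, the CArG box. It works with partner proteins of 2 kinds. Myocardin-related factors (MRTFA and MRTFB) are held by actin monomers in the cytoplasm and enter the nucleus when monomers are drawn into filaments, and the genes they serve encode much of the contractile and adhesive actin machinery. Ternary complex factors (ELK1, ELK3 and ELK4) are activated by MAP kinases and are best known at the immediate early genes. In fibroblasts the contractile set is a usual readout of the myofibroblast state, while in smooth muscle the same genes mark the differentiated cell.

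The promoter windows of the members are shown first because the CArG box is the element that defines SRF binding. RefSeq windows on GRCh38.p14, each running from 250 bases before to 50 bases after an annotated start, were held for 8 of the 10 members, 14 windows in all; TAGLN and MYL9 had none in the table used here. The box was searched as 2 C, 6 letters that are each A or T, then 2 G, a pattern that reads the same on both strands. SRF itself held a pair of exact boxes, and FLNA held 1. ACTA2 held 2 boxes that miss the pattern by 1 letter. VCL, shown for contrast, held neither form. Capitals mark the exact boxes in SRF and FLNA and the boxes off by 1 letter in ACTA2.
SRF, chr6:43171019-43171318, plus strand: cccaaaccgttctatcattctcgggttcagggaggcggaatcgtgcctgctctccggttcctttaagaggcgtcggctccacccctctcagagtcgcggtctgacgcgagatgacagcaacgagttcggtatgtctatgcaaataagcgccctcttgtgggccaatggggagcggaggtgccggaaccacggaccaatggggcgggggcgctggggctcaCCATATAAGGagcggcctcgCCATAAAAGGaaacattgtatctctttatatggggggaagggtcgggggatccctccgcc
FLNA, chrX:154374585-154374884, minus strand: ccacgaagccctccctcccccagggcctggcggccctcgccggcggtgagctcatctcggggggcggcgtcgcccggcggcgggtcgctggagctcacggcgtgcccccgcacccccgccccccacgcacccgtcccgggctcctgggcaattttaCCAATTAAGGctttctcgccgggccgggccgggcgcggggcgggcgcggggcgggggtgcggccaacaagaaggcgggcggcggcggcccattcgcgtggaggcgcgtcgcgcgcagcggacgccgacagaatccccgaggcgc
ACTA2, chr10:88952724-88953023, minus strand: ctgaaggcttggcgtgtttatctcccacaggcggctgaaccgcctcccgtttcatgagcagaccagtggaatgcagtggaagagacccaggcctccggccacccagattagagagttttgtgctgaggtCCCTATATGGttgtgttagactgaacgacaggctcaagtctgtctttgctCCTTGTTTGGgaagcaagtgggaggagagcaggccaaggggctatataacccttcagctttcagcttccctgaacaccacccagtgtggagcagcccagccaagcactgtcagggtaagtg
VCL, chr10:73997866-73998165, plus strand: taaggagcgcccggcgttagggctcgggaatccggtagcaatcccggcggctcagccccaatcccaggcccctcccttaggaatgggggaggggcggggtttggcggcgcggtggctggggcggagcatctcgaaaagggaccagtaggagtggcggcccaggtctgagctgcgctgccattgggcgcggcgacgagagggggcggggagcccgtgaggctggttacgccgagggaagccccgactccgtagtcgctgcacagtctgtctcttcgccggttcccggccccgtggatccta

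The exact SRF boxes began 30 and 10 bases before the annotated start, and the FLNA box began 94 bases before it. A further SRF box, off by 1 letter, began after the start and is left in lower case above. In ACTA2 the boxes off by 1 letter began 121 and 71 bases before the start. CALD1 also held boxes off by 1 letter, in 2 of its 4 windows, whereas CNN1, TPM1 and TPM2 held neither form. Counted by gene over all of its windows, 2 of the 8 members held an exact box and 4 held a box that was exact or off by 1 letter. The same count over the 11757 genes with a window that were listed in both tables gave 1.58% and 19.5%. Counted by window, 1.29% and 18.9% of all 35116 human windows in the table held them. A match is only a match of letters in this window, and the absence of one says nothing about binding elsewhere in the gene.

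The libraries were of similar depth, at about 33620000 to 45570000 estimated reads each, and libraries of one group correlated at Pearson's r of 0.992 to 0.996 on log2 levels. Some connective tissue markers were at high levels, with VIM at 195751 ± 4293 and FN1 at 167348 ± 3162 normalized counts in the PMA controls (SD, n = 3). Others of the 10 mesenchymal markers were low there, with COL1A1 at 937 ± 33.8, COL1A2 at 324 ± 7.71, S100A4 at 194 ± 17.9 and THY1 at 117 ± 16.3, the last of these not listed in the ConA table, beside 180.1 ± 6.15 for the leukocyte gene PTPRC. Of 7 epithelial markers, 3 were listed in the PMA table and 6 in the ConA table. The listed ones were low, summing to between 170.1 and 331 normalized counts in any library. In the PMA controls CLDN4 averaged 111.5 and KRT19 100.8, close to THY1. Several leukocyte genes were listed in the PMA table and not in the ConA table, among them PTPRC (CD45) and CD3E. The summed level of the 20 leukocyte and blood cell markers was 1094 to 1134 in the PMA controls and 1356 to 1892 in the PMA libraries, out of normalized totals of 36791432 to 43210305 per library. Of the 9 tested with PMA 5 rose, led by GNLY (1.5 on the log2 scale), CD247 (0.93) and CD3E (0.78), genes of T and natural killer cells. In the ConA table the same sum was 472 to 504 in controls and 385 to 438 with ConA. The part of these markers in the results for the members was not tested.

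Between genes, levels are compared per kilobase of the longest principal transcript in GENCODE release 29. On that scale TPM2 stood at 13588 ± 483, TPM1 at 13420 ± 284 and FLNA at 9577 ± 1029 normalized counts per kilobase in the PMA controls. The tropomyosins did not differ beyond their spread there. ACTA2 at 2186 ± 135 and VCL at 2162 ± 55.5 formed the next pair, again within their spread. CALD1 at 1043 ± 13.8 and MYL9 at 1037 ± 53.6 followed together, then SRF at 608 ± 46.9, TAGLN at 302 ± 21.8 and CNN1 at 10.9 ± 3.28. In the ConA controls TPM1 led at 21048 ± 496, ahead of TPM2 at 14967 ± 539 and FLNA at 10489 ± 955, and CNN1 was again lowest at 19.8 ± 3.13. These figures take 1 transcript per gene, while TPM1, TPM2 and CALD1 are spliced into several forms of different length.

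With PMA, 6 of the 10 members fell and 1 rose, none of them by 2-fold. VCL, TPM1, MYL9 and TAGLN lost about the same share of their level, ACTA2 and CALD1 lost less, and SRF gained. The test was limma on log2(value + 1) over the 15153 genes of the table that averaged 10 normalized counts or more. "Rose" and "fell" here mean a two-sided Benjamini-Hochberg adjusted p of at most 0.05. Under that rule 32.8% of all tested genes rose and 30.5% fell with PMA, so single calls are common in this table. The members' median log2 fold change was -0.39, beside 0.00 for all genes tested. In 6 members every PMA library lay below every control, as in 33.1% of all genes. None of the members reached the study's stricter cut of a 2-fold change with an adjusted p of at most 0.0001, which 8.65% of all genes passed.

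**Figure D1:**
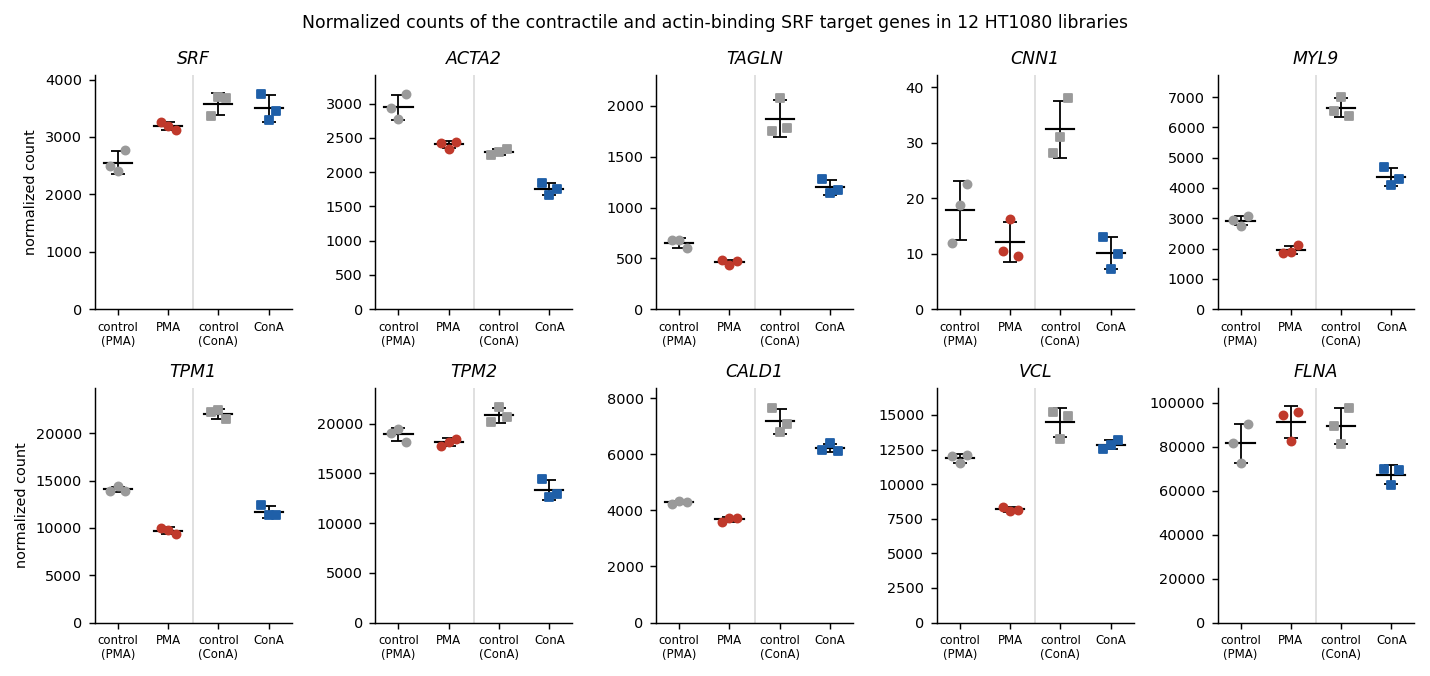
Normalized counts (vertical axes, from 0) of the 10 members in each library, with controls in gray, PMA libraries in red and ConA libraries in blue; horizontal bars are means and error bars the SD of 3 libraries. With PMA the SRF points lie above their controls and 6 members lie wholly below theirs; with ConA 9 members lie wholly below theirs, and the 2 tables were normalized apart.

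SRF, the transcription factor of the set, read 2489, 2400 and 2777 normalized counts in the controls and 3263, 3190 and 3118 with PMA. All PMA libraries exceeded all controls, a log2 fold change of 0.32 (SE 0.054, adjusted p = 0.000302). It was the only member that rose. With ConA, SRF read 3756, 3291 and 3455 against 3361, 3689 and 3677 in its controls. These values overlapped fully, and the log2 fold change of -0.03 had a 95% interval from -0.16 to 0.10.

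ACTA2 encodes smooth muscle alpha-actin, the actin isoform of stress fibers in myofibroblasts. Its normalized counts were 2937, 2773 and 3138 in the PMA controls and 2430, 2346 and 2442 with PMA, without overlap. The log2 fold change was -0.29 (SE 0.049, adjusted p = 0.00033). With ConA it went from 2247, 2290 and 2342 to 1848, 1668 and 1761, again without overlap, a log2 fold change of -0.38 (SE 0.058, adjusted p = 4.6e-05). Its antisense neighbor ACTA2-AS1 overlaps an ACTA2 exon, the strand setting of the counting is not given in the sources used here, and ACTA2-AS1 changed by -0.46 with PMA and -0.59 with ConA, neither past the threshold.

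TAGLN (transgelin, or SM22-alpha) and CNN1 (calponin 1) are actin-binding proteins of the calponin family and early markers of smooth muscle. TAGLN read 679.9, 682.5 and 599 normalized counts in the PMA controls and 481, 437 and 470.4 with PMA, a log2 fold change of -0.50 (SE 0.072, adjusted p = 0.000105). With ConA it dropped from 1754, 2081 and 1786 to 1282, 1147 and 1168, a log2 fold change of -0.64 (SE 0.074, adjusted p = 3.65e-06). Neither set of libraries overlapped its controls. TAGLN shares exonic positions with PCSK7 on the other strand, which changed by -0.01 with PMA and 0.08 with ConA, neither past the threshold.

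CNN1 was close to the floor of the data. Its normalized counts were 12.0, 18.8 and 22.6 in the PMA controls and 10.4, 16.2 and 9.58 with PMA. These overlapped, and the log2 fold change of -0.51 had an interval from -1.29 to 0.26 (adjusted p = 0.224). With ConA it went from 28.1, 31.0 and 38.1 to 13.0, 7.32 and 9.88. All ConA libraries were below all controls, a log2 fold change of -1.61 (SE 0.31, adjusted p = 0.000353). This was the only change of a member beyond 2-fold, and it missed the strict cut on its adjusted p.

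MYL9 encodes the regulatory light chain of non-muscle and smooth muscle myosin, the chain whose phosphorylation switches contraction on. It read 2953, 2762 and 3061 normalized counts in the PMA controls and 1867, 1875 and 2103 with PMA. In the ConA experiment it read 6546, 6999 and 6389 in controls and 4693, 4094 and 4296 with ConA. The groups were apart in both experiments, and the log2 fold changes were alike in size, -0.59 (SE 0.057, adjusted p = 3.97e-06) with PMA and -0.61 (SE 0.060, adjusted p = 7.88e-07) with ConA. MYLK, the kinase that phosphorylates this chain, fell by 0.23 (adjusted p = 0.00148) with PMA and by 0.59 (adjusted p = 6.77e-07) with ConA on the log2 scale. The close relatives MYL12A and MYL12B, which can share reads with MYL9, rose with PMA by 0.41 and 0.64 on the same scale (adjusted p = 2.24e-05 and 3.55e-07). With ConA MYL12A rose by 0.26 (adjusted p = 0.000415) and MYL12B changed by 0.08, not past the threshold.

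TPM1 and TPM2 encode tropomyosins, coiled coils that lie along the actin filament and govern access of myosin and other proteins. TPM1 was at 13875, 14419 and 13938 normalized counts in the PMA controls and at 10024, 9786 and 9358 with PMA. In the ConA experiment it was at 22284, 22465 and 21487 in controls and at 12434, 11354 and 11339 with ConA. Its log2 fold changes were -0.53 (SE 0.039, adjusted p = 3.49e-07) and -0.92 (SE 0.054, adjusted p = 3.56e-09), the latter close to a loss of 47.0% of the control mean. TPM1-AS and AC079328.2 overlap TPM1 exons on the other strand, and TPM1-AS changed by 0.04 with PMA and -0.29 with ConA, neither past the threshold.

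TPM2 behaved otherwise with PMA. Its normalized counts were 19064, 19500 and 18181 in the controls and 17782, 18188 and 18492 with PMA, with overlap. The log2 fold change was -0.06, with an interval from -0.15 to 0.03 (adjusted p = 0.213). It fell without control library 3 (-0.09, adjusted p = 0.0395) and under 2 other scalings, to -0.30 (adjusted p = 3.6e-05) after quantile normalization and -0.18 (adjusted p = 0.00172) after scaling to the library total. With ConA TPM2 dropped from 20185, 21656 and 20662 to 14476, 12619 and 12935, a log2 fold change of -0.64 (SE 0.060, adjusted p = 3.92e-07).

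CALD1 encodes caldesmon, which binds actin, tropomyosin and myosin and restrains their interaction. It showed small falls in both experiments. Normalized counts were 4232, 4344 and 4301 in the PMA controls and 3590, 3732 and 3713 with PMA, and 7640, 6786 and 7082 in the ConA controls and 6142, 6399 and 6115 with ConA. Treated and control libraries were apart in each case. The log2 fold changes were -0.22 (SE 0.037, adjusted p = 0.000289) and -0.20 (SE 0.055, adjusted p = 0.00497).

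VCL encodes vinculin, which ties actin filaments to integrin adhesions and cadherin junctions through talin and catenins. It had the smallest adjusted p of the members with PMA, going from 12003, 11518 and 12079 to 8371, 8074 and 8111 normalized counts. The PMA libraries lay far below their controls, a log2 fold change of -0.54 (SE 0.037, adjusted p = 2.13e-07) or a loss of 31.0%. With ConA it went from 15233, 13247 and 14908 to 12515, 12846 and 13206. The groups were barely apart, and the log2 fold change of -0.17 (SE 0.059, adjusted p = 0.0225) did not pass in 4 of the 6 fits that left out 1 library, with adjusted p from 0.0542 to 0.0919. AP3M1, antisense to VCL where their exons overlap, rose by 0.22 with PMA and 0.18 with ConA (adjusted p = 0.000404 and 0.0413).

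FLNA encodes filamin A, which crosslinks actin filaments and links them to integrins and other membrane proteins. It was the most abundant member in normalized counts, with 81543, 72799 and 90322 in the PMA controls and 94541, 82723 and 95944 with PMA. These groups overlapped, and the log2 fold change of 0.16 had an interval from -0.01 to 0.34 (adjusted p = 0.0948). FLNA passed as higher without control library 3 (0.24, adjusted p = 0.00437) or without PMA library 2 (0.23, adjusted p = 0.0377), whereas scaling to the library total gave 0.04 (adjusted p = 0.668). With ConA it went from 89315, 81196 and 97466 to 70068, 62480 and 69403. Here the groups were apart, with a log2 fold change of -0.41 (SE 0.074, adjusted p = 0.000237) that did not pass after quantile normalization (-0.14, adjusted p = 0.0841).

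With ConA, then, 9 of the 10 members fell and none rose by limma. At an unadjusted p under 0.05 the same count of members rose, 0. Among the 15139 genes tested in the ConA table, 32.5% fell and 32.8% rose. The members' median log2 fold change was -0.51, beside 0.00 for all genes. Every ConA library lay below every control in 9 members, as in 34.4% of all genes, and the strict 2-fold cut, passed by 8.71% of all genes, was met by none. Only SRF overlapped. In bulk RNA, fewer cells of a kind and less RNA per cell cannot be told apart.

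**Figure D2:**
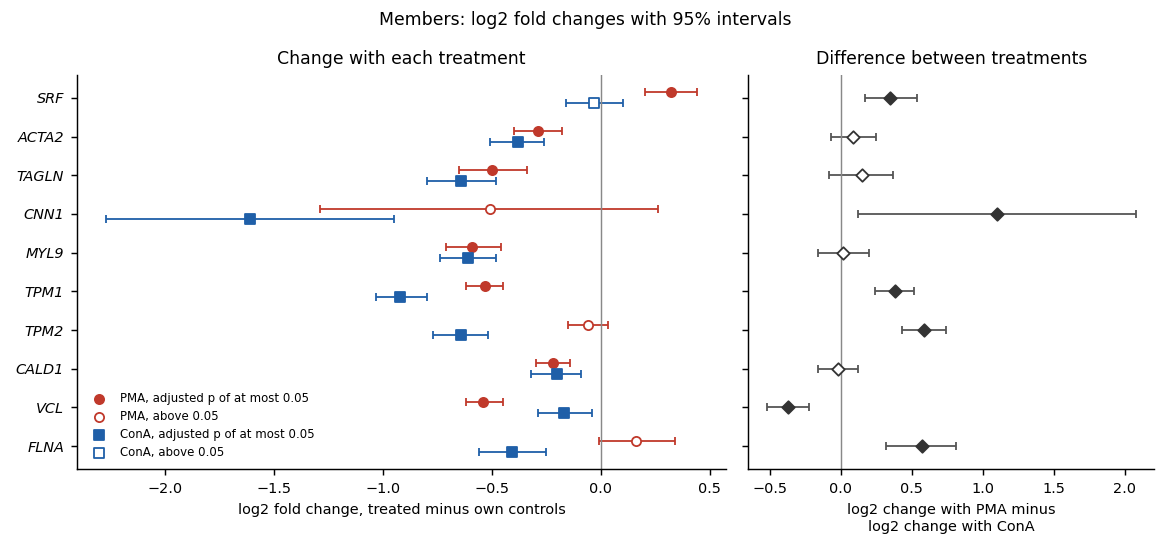
Left, log2 fold change of each member with PMA (red circles) and ConA (blue squares) against its own controls, with 95% intervals from limma; right, the difference between the changes (PMA minus ConA). Filled symbols have an adjusted p of at most 0.05; filled points on the left run from -1.61 for CNN1 with ConA to 0.32 for SRF with PMA.

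The changes under the treatments were then compared directly, by subtracting each member's log2 fold change with ConA from that with PMA in one fit of all 12 libraries. This difference passed for 6 of the 10 members, 5 of them higher with PMA and VCL lower, while 31.1% and 30.7% of the 14661 genes tested passed in those directions. TPM2 differed by 0.59 (SE 0.073, adjusted p = 2.47e-06), FLNA by 0.57 (SE 0.12, adjusted p = 0.000437) and TPM1 by 0.38 (SE 0.065, adjusted p = 7.33e-05) on the log2 scale. The FLNA difference did not pass after quantile normalization. VCL differed in the other direction, by -0.37 (SE 0.071, adjusted p = 0.000238). SRF differed by 0.35 (SE 0.086, adjusted p = 0.00176), which did not pass after scaling to the library total (0.17, adjusted p = 0.0902). The CNN1 difference of 1.10 (SE 0.46, adjusted p = 0.0484) was at the threshold and did not pass in 8 of the 12 fits that left out 1 library, with values from 0.86 to 1.19 and adjusted p from 0.0524 to 0.131. For the other 4 members the 95% intervals of the difference were -0.07 to 0.25 for ACTA2, -0.08 to 0.37 for TAGLN, -0.16 to 0.20 for MYL9 and -0.16 to 0.12 for CALD1. These intervals do not show that the treatments acted alike on them.

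Ratios between members within a library are unchanged by any single factor applied to that library, though not by quantile normalization. The TPM1 to TPM2 ratio of normalized counts was 0.728, 0.739 and 0.767 in the PMA controls and 0.564, 0.538 and 0.506 with PMA. It was 1.10, 1.04 and 1.04 in the ConA controls and 0.859, 0.900 and 0.877 with ConA. TPM1 was thus lower relative to TPM2 in every treated library of both experiments. The MYL9 to TPM2 ratio dropped with PMA, from a mean of 0.155 ± 0.0134 to 0.107 ± 0.00565 (SD, n = 3), without overlap, and overlapped with ConA, at 0.319 ± 0.00840 and 0.327 ± 0.00452.

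The VCL to FLNA ratio moved in opposite directions. It went from 0.147, 0.158 and 0.134 in controls to 0.0885, 0.0976 and 0.0845 with PMA, and from 0.171, 0.163 and 0.153 to 0.179, 0.206 and 0.190 with ConA. In both experiments the treated and control libraries were apart in the values as deposited. After quantile normalization the log2 fold changes with ConA were -0.14 for both VCL and FLNA, so the rise of the ratio with ConA was not seen under that setting, while with PMA VCL was at -0.68 and FLNA at 0.06. VCL against SRF dropped from 4.66 ± 0.266 to 2.57 ± 0.0352 with PMA and overlapped with ConA, at 4.06 ± 0.471 and 3.69 ± 0.309. With 3 libraries against 3, an exact two-sided permutation test cannot go below p = 0.1, so no p is given for the ratios. Each ratio restates the changes of its own genes, and the share of all gene pairs that separate in this way was not computed.

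**Figure D3:**
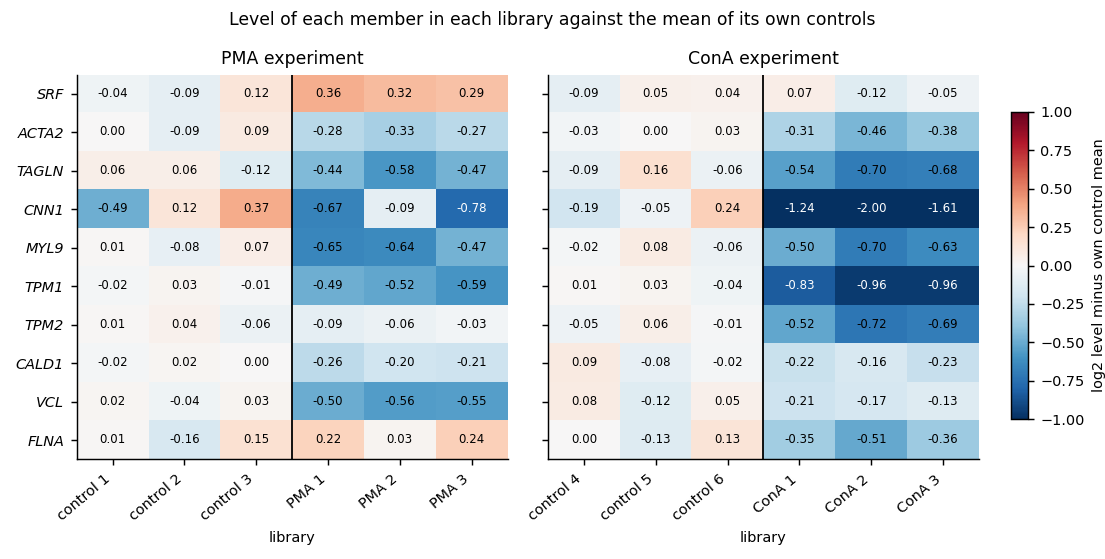
Log2 level of each member (rows) in each library (columns) less the mean of the controls of its own table, blue for lower and red for higher, with colors saturating at a difference of 1. PMA and ConA columns are blue for most members; SRF is red with PMA, TPM2 and FLNA are at -0.35 or lower with ConA, and the CNN1 controls spread from -0.49 to 0.37.

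By library, the heat map of levels against own controls shows how far the single libraries of a group stood apart. ConA library 1 was the highest of the 3 ConA libraries for 8 of the 10 members, and for 37.1% of all genes tested. For TPM1 its log2 level against controls was -0.83, and the other ConA libraries were both at -0.96. For TPM2 the corresponding values were -0.52, -0.72 and -0.69. Among the PMA libraries no library was highest for more than 4 members. PMA control 3 was the highest control for 6 members and for 40.0% of all genes.

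The partners of SRF were examined next, since they decide which of its genes are served. Of the 7 cofactor genes tested, 2 rose and 2 fell with PMA, and 2 rose and 3 fell with ConA. MYOCD, the smooth and cardiac muscle cofactor, was not listed. Beside this and the list counts below, 32.8% of all tested genes rose and 30.5% fell with PMA. With ConA 32.8% of all tested genes rose and 32.5% fell. The ternary complex factors ELK3 and ELK1 rose with PMA by 1.06 (adjusted p = 3.15e-09) and 0.88 (adjusted p = 1.16e-08) on the log2 scale. ELK1 went from 2064, 1932 and 1948 to 3722, 3533 and 3679 normalized counts. With ConA, ELK3 rose by 0.17 (adjusted p = 0.0107) and ELK1 fell by 0.25 (adjusted p = 0.00168). ELK4 changed by -0.08 and 0.11, not past the threshold with either treatment.

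MRTFA changed by -0.13 with PMA (adjusted p = 0.0991) and rose by 0.35 with ConA (adjusted p = 9.05e-05), from 1773, 1732 and 1787 to 2195, 2180 and 2362 normalized counts. MRTFB changed by 0.10 and 0.21, with adjusted p of 0.245 and 0.0624. FHL2, a LIM-domain protein that binds SRF and is itself one of its targets, fell with both, by 0.41 (adjusted p = 6.09e-06) with PMA and 1.15 (adjusted p = 4.45e-10) with ConA. In the ConA experiment FHL2 went from 10679, 11506 and 10960 to 5317, 4812 and 4833. SCAI, which represses MRTF-driven transcription, also fell with both, by 0.60 (adjusted p = 0.00111) and 0.28 (adjusted p = 0.0431). Transcript levels do not report where the MRTF proteins were in the cell.

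Another 32 cytoskeletal genes known as SRF targets moved in both directions. With PMA 16 rose and 8 fell, median 0.16, and with ConA 6 rose and 19 fell, median -0.21. The cytoplasmic actins differed from each other. ACTG1 went from 169255, 165143 and 176878 to 113194, 112049 and 122065 normalized counts with PMA, a log2 fold change of -0.56 (adjusted p = 2.86e-06). With ConA it went from 186448, 200424 and 191306 to 96253, 88943 and 94858, a log2 fold change of -1.05 (adjusted p = 4.9e-09). ACTB changed by -0.05 with PMA (adjusted p = 0.544) and fell by 0.26 with ConA (adjusted p = 0.00257). The actins are near-identical in coding sequence, so reads shared among ACTA2, ACTB and ACTG1 make their split uncertain.

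The largest single changes in that list were of SMTN, CSRP2 and LPP. SMTN encodes smoothelin, a protein of contractile smooth muscle filaments, and rose with PMA from 3116, 3004 and 3252 to 11022, 10293 and 11350 normalized counts, a log2 fold change of 1.80 (adjusted p = 6.16e-11). It was thus opposite in direction to TAGLN, MYL9 and TPM1 in the same libraries. With ConA SMTN rose by 0.25 (adjusted p = 0.00114). CSRP2, a LIM protein of smooth muscle, rose by 1.22 with ConA (adjusted p = 2.98e-08), and LPP, a LIM protein of focal adhesions, fell by 1.19 (adjusted p = 1.61e-07). Within the families of the members, CNN3 fell with both treatments, by 0.85 and 0.42 and TPM3 rose by 0.48 with PMA (adjusted p = 4.16e-07).

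The immediate early genes, the other branch of SRF targets, went the other way. Of 11 tested with PMA 10 rose and none fell by limma, and at an unadjusted p under 0.05 none was lower either, with a median of 1.06. Of 10 tested with ConA 7 rose and 2 fell, with a median of 0.69. EGR1, a zinc finger factor that is a classic target of the ternary complex, went from 575, 461 and 569.6 to 6845, 6356 and 6655 normalized counts with PMA, a log2 fold change of 3.63 (adjusted p = 1.35e-11). With ConA it rose by 0.91 (adjusted p = 1.07e-06). EGR2 rose by 1.82 with PMA (adjusted p = 5.34e-05) and FOSL1 by 1.81 (adjusted p = 3.87e-11). EGR2 was below the filter in the ConA table and was not tested there. IER3 and DUSP1 were the genes that fell with ConA, by 0.28 and 0.39. With PMA IER3 rose by 1.79 (adjusted p = 2.03e-11) and DUSP1 changed by 0.09, not past the threshold.

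**Figure D4:**
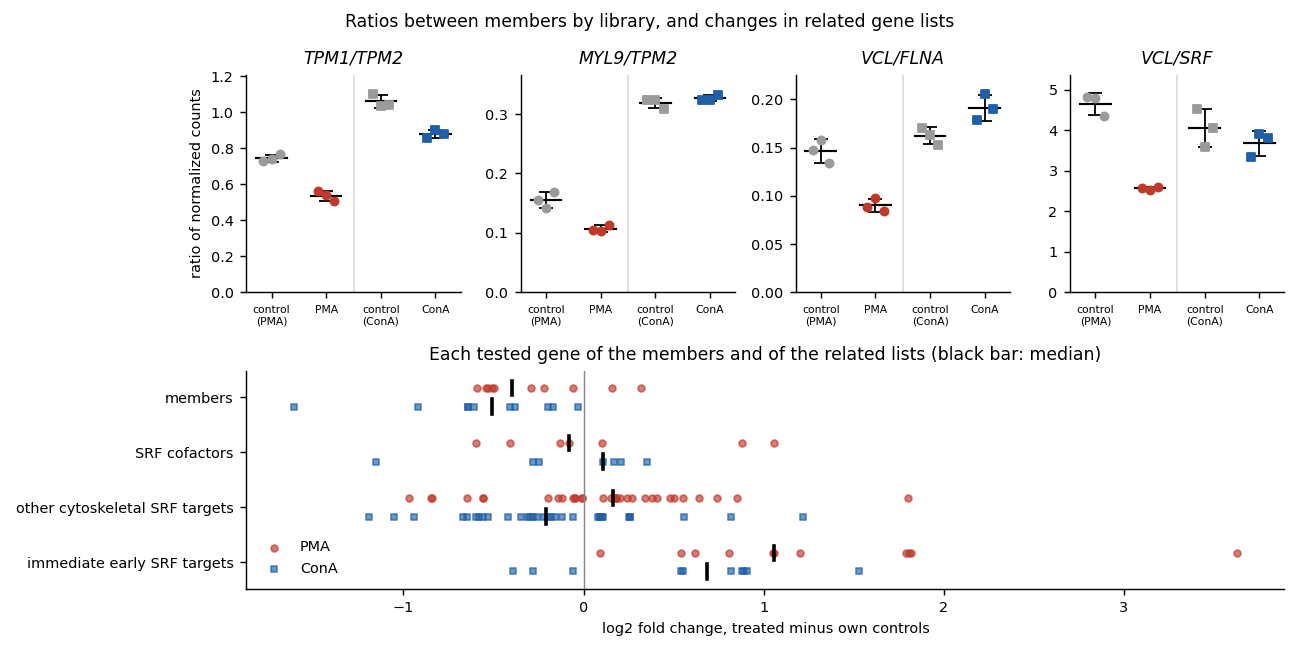
Top, ratios of normalized counts between members in each library (vertical axes from 0; controls gray, PMA red, ConA blue; bars are means and error bars SD of 3 libraries). Bottom, log2 fold change of every tested gene in 4 lists with PMA (red circles) and ConA (blue squares), black bars marking medians, which run from -0.51 for the members with ConA to 1.06 for the immediate early genes with PMA.

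Most markers of muscle differentiation beyond these actin-binding genes were low or not listed in HT1080. Of 11 smooth muscle markers, 6 were listed in each table, and ACTG2, MYOCD, KCNMB1, PLN and ITGA8 were not. MYH11, the defining smooth muscle myosin, averaged 6.67 normalized counts in the PMA controls and 7.53 in the ConA controls and was below the filter. SYNM was the highest of the 6, averaging 493.5 in the PMA controls and 505.4 in the ConA controls. It fell by 0.63 with PMA (adjusted p = 4e-05) and rose by 0.66 with ConA (adjusted p = 4.94e-06) on the log2 scale. Of the 4 tested with PMA 3 fell, and of the 5 tested with ConA 4 rose. SYNPO2 (synaptopodin 2), an actin-bundling protein, fell with PMA by 0.77 (adjusted p = 0.0201) and rose with ConA from 28.1, 37.02 and 23.0 to 118, 138 and 113, a log2 fold change of 2.05 (adjusted p = 5.47e-07). DES (desmin) rose with ConA by 1.81 (adjusted p = 0.000636), at levels no higher than 32.0. LMOD1 (leiomodin) fell with PMA by 1.15 (adjusted p = 0.00659), from a mean of 32.0 to 14.4 normalized counts. Those rises with ConA ran against the falls of CNN1, TAGLN and ACTA2 in the same libraries. Among 11 striated muscle genes 3 were tested with PMA, of which MYH3 and TTN fell by 0.59 and 0.23, and 2 with ConA, where none passed. MYH7 swung between 0 and 227 normalized counts within the PMA libraries and gives no usable value.

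Of the 10 mesenchymal markers, 3 rose and 5 fell with PMA, and of the 9 tested with ConA 4 rose and 5 fell. VIM rose by 0.49 with PMA (adjusted p = 7.18e-06) and fell by 0.79 with ConA (adjusted p = 9.08e-08), while FN1 fell with both, by 0.56 and 0.68. COL1A2 fell by 1.04 with PMA and rose by 0.92 with ConA, and S100A4 fell by 1.05 with ConA. Of the endothelial and pericyte markers, 2 rose and 3 fell with PMA and 3 rose and 2 fell with ConA. VWF fell by 1.67 and 0.89 and NOTCH3 by 1.33 and 0.57. MCAM fell by 0.94 with PMA and rose by 0.27 with ConA. VWF was near the floor in the PMA experiment, averaging 27.8 normalized counts in controls and 8.01 with PMA. The epithelial markers gave 2 falls with PMA, of ESRP1 (-1.39) and CLDN4 (-0.72), and with ConA a fall of ESRP1 (-1.23) and a rise of CLDN4 (0.35), while CDH1 changed by 0.56 there, not past the threshold. Leukocyte markers gave 1 fall with ConA, of CSF1R.

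Across the genome, the genes closest to each member were ranked by the Euclidean distance between their 12 log2 levels, each less the control mean of its table, among 11724 genes with a mean of at least 100 in both tables. TPM2 lay nearest to ATP5F1B (distance 0.10), SNF8 and NAT9, and VCL nearest to TANC1 (0.12), FOSL2 and RNF24. CALD1 was closest to MATR3 (0.13), UMAD1 and KDM3A, and SRF to HNRNPL (0.14), RTN4 and PINK1. ACTA2 was closest to ALDOA (0.15), TOM1L2 and UBQLN4, and TPM1 to NTPCR (0.18), PRKAG2 and HSDL2. The nearest genes to FLNA were DIP2C (0.18), RNF123 and AARS1, and to TAGLN USE1 (0.19), PHPT1 and BAD. MYL9 was nearest to TBC1D17 (0.21), LMNA and PORCN. For CNN1, whose own level was below that minimum, the nearest candidates were CTXN1 (0.73), DDIT4 and NDUFAF8, and these distances hold its wide spread between libraries. No member was among the 3 nearest genes of another member, CNN1 not being a candidate itself. The members are few among the 11724 candidates, so no conclusion on their likeness is drawn from this.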

How the data were processed

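Polyadenylated RNA of 12 HT1080 samples was sequenced by a service company. The submitters' processing notes name Partek, Bowtie2, STAR and DESeq2 and list the builds hg19 and mm10, with no role for any; strandedness is not given in the sources used here. The authors deposited 1 table per treatment of normalized counts, a signal per gene divided by 1 factor per library and not by gene length. Whole reads could not be recovered, so no count test was run. Of low values, 81.1% to 83.3% were whole multiples, within a tolerance of 0.02 that widened with the value. The labels do not say that the libraries of a group came from separate experiments, so p-values measure the spread between these samples, which may be technical.

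Here log2(value + 1) of genes with a mean of at least 10 was tested with limma 3.58.1 in R 4.3.3 (variance trend, Benjamini-Hochberg over all genes tested, two-sided), 1 fit per table, and the difference between treatments in 1 fit of all 12 libraries. The fits were tested on simulated data. The study's cut (2-fold, adjusted p of at most 0.0001) is used only for the strict calls. Tables and ratios were made with Python 3.11.15, pandas 2.3.3 and numpy 2.4.6, and figures with matplotlib 3.10.9. All 10 members are named; from each related list the counts are given (1 further list is not reported here), with the 3 genes of largest change in either treatment, the SRF cofactors, MYLK, ACTB and ACTG1, and for each member the 3 nearest genes. Other list genes (MYL12A, MYL12B, CNN3, TPM3, MYH11, MYH7, PTPRC, CD3E, the immediate early genes that fell and the remaining markers) were named after their values were seen. The members and lists were chosen with earlier results of these data known. Alternatives were 2 pseudocounts, 2 filters, quantile and median scaling, no variance trend, 1 joint fit, a replicate block, leaving out each library and, chosen after seeing the data, scaling to the library total.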

Additional observations from a re-analysis of the deposited data

Results flagged for a closer look

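For 6 members the log2 change with PMA differed from that with ConA in a direct test of the difference (limma, all 12 libraries, Benjamini-Hochberg over 14661 genes). Such differences were common, since 31.1% of all genes passed as higher with PMA and 30.7% as lower. The difference, PMA minus ConA, was 1.10 for CNN1, 0.38 for TPM1, 0.59 for TPM2, -0.37 for VCL, 0.57 for FLNA and 0.35 for SRF. The direction of TPM2, TPM1 and VCL was shared by all alternatives tried and passed in each. The FLNA difference did not pass after quantile normalization, nor did that of SRF after scaling to the library total. CNN1 rests on values under 40 normalized counts per library. The control libraries of the experiments were distinct, so no library entered both changes.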

How the results depend on the processing

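Members that rose with PMA numbered 1 (SRF) and became 2 with a replicate block, when FLNA joined (0.16, adjusted p = 0.00766); leaving out 1 library gave 1 to 2. In the PMA table, deviations of same-numbered libraries from their group means correlated at -0.064, 0.096 and 0.096, and the others at -0.176 to 0.106. With 3 libraries per group, these values cannot settle whether the shared numbers pair the libraries. ConA libraries and their controls share no number. Members called 2-fold with ConA went from 0 to 1 (CNN1) when an adjusted p of 0.05 sufficed. The PMA falls numbered 6 to 7 and the ConA falls 7 to 9, and members that differed between treatments from 5 to 6. Scaling to the library total moved the median of all genes to -0.12 with PMA and 0.06 with ConA and the share of falls among changed genes from 48.2% to 64.4% with PMA; TPM2 then fell with PMA, VCL did not pass with ConA (-0.10, adjusted p = 0.157), CALD1 with ConA was just over it (-0.14, adjusted p = 0.05), and of the differences SRF (0.17) and CNN1 (0.93) were lost and CALD1 (-0.21, adjusted p = 0.0155) passed. Quantile normalization lost VCL (-0.14, adjusted p = 0.0595) and FLNA (-0.14) with ConA and the FLNA difference (0.20, adjusted p = 0.176). The CNN1 difference did not pass in 8 of the 12 fits without 1 library. Of 507 single values 466 kept their direction and side of the threshold, and no called value changed sign. The cause of these shifts was not tested. Depth limits CNN1, whose counts per library were under 40, and unknown strand limits genes with antisense exons.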

Other observations

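The untreated cells of the experiments can be set side by side, with the limit that their tables were normalized apart. The mean normalized count of TAGLN was 654 in the PMA controls and 1874 in the ConA controls, and that of MYL9 was 2926 and 6645. On the log2 scale the ConA controls exceeded the PMA controls by 1.52 for TAGLN, 1.18 for MYL9, 0.86 for CNN1, 0.74 for CALD1 and 0.65 for TPM1. ACTA2 was on the other side, at -0.36. Over all 14661 genes the median of this difference was 0.18, the middle 90% ran from -0.58 to 0.77, and 3.76% of genes were over 1 in absolute size. No test was made between tables. The level that TAGLN and MYL9 had with ConA, 1199 ± 72.6 and 4361 ± 305 (SD, n = 3), was above that of the untreated cells of the PMA experiment.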
